A study of Mus musculus with 7 samples.

Results

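Here 9 mouse genes are described in immature and mature bone marrow-derived dendritic cells (BMDCs), chosen by symbol from the 28666 genes of the deposited table. They are the phagocyte NADPH oxidase genes Cybb, Cyba and Ncf4, the transcription factor gene Nfe2l2, which encodes NRF2, and its antioxidant target genes Gclm, Nqo1, Txnrd1, Srxn1 and Slc7a11. All 9 were counted in every library and passed the filter on low counts. The study's bone marrow came from female C57BL/6 mice of 6 to 8 weeks, was cultured with GM-CSF and IL-4 for 7 days, and was then placed in a Transwell system together with the mouse colon carcinoma line MC38. Its text describes the profiled BMDCs as taken after 24 h of DON, a glutamine antagonist, given to the tumor cells. The legend of its sorting scheme names DMSO as well as DON at 5 µM, and the sample labels name no agent. In the study's account of the co-culture, DON was combined with added glutamine, and the DMSO control had a lower glutamine level. The glutamine level is not given again for the profiled cells. Flow sorting then gave immature BMDCs (3 libraries) and mature BMDCs (4 libraries) from this culture. The sources used here do not give the markers of this sort, nor say whether libraries of a group came from separate mice or cultures, so the p values measure the spread between these libraries.

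The phagocyte NADPH oxidase moves electrons from NADPH across the membrane to oxygen and so makes superoxide. Its membrane part joins the catalytic subunit NOX2, encoded by Cybb, to a partner encoded by Cyba, and its cytosolic part, which holds the proteins of Ncf1 and Ncf4 and a Rac GTPase, joins them upon activation. In dendritic cells this enzyme is known for acting at the phagosome, where it slows the breakdown of engulfed antigen. NRF2 is kept low by KEAP1, which hands it to a ubiquitin ligase, and under oxidative stress it enters the nucleus and binds antioxidant response elements with small MAF proteins. BACH1 competes for these elements as a repressor.

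The promoters of these genes are shown because 8 of the 9 genes moved in 1 direction. Whether their letters bear on that direction was not tested. RefSeq windows of 300 bases (GRCm38.p6, 250 before to 50 after a start site) were at hand for 8 of the 9 genes, in 10 windows, and Ncf4 had none. They were searched on both strands for the core of the antioxidant response element, TGACNNNGC, and for the AP-1 site TGANTCA, which reads the same on both strands. The core stood in 4 of the 10 windows, those of Nfe2l2, Gclm and Srxn1 and 1 of those of Txnrd1, while 12.4% of all 32851 windows held it. Gclm, Txnrd1 and Srxn1 were chosen as NRF2 targets, so this count is not a test of these genes. The AP-1 letters stood in 2 of the 10 windows, those of Srxn1 and Cybb, while 7.81% of all windows held them. No match to the core overlapped an AP-1 match in these windows. A match is a run of letters and was not tested as a binding site, and the windows of Cyba, Nqo1 and Slc7a11 held neither run. Capitals mark the matches in the stretches printed here, 5′ to 3′ on the strand of the gene. On this strand the core reads forward in Nfe2l2 (chr2:75704865-75704913, minus strand) and in reverse complement in Gclm (chr3:122245393-122245461, plus strand), Txnrd1 (chr10:82859084-82859152, plus strand) and Srxn1 (chr2:152105542-152105570, plus strand). The AP-1 stretches are those of Srxn1 (chr2:152105407-152105500, plus strand), which holds 2 matches, and Cybb (chrX:9469427-9469493, minus strand). The window of Cybb (chrX:9469275-9469574) lies within the deposited gene span (9435252 to 9487771), not at its 5′ end. That of Txnrd1 with the core (chr10:82858956-82859255) also lies within its gene span (82833951 to 82897712).
Nfe2l2, core: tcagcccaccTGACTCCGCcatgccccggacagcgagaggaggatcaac
Gclm, core: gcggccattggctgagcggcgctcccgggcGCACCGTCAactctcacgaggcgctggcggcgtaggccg
Txnrd1, core: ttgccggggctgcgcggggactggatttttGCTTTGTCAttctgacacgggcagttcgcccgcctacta
Srxn1, core: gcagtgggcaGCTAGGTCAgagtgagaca
Srxn1, AP-1: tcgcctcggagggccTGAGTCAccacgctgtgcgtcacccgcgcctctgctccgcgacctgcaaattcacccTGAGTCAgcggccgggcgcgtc
Cybb, AP-1: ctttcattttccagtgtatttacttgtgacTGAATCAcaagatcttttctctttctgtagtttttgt

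Library totals were 54846746 to 67973086 counts. Mature replicate 3 stood apart from the other mature libraries, with a median chi-square per gene of 17.7 to 25.6 against them and of 4.26 to 5.27 among them. Its ratio to their mean fell with transcript length (Spearman rho -0.456 across 17436 genes, which are not independent). All 6 markers of mature dendritic cells, among them Cd80, Cd86 and Ccr7, were higher past the criteria in mature BMDCs. In mouse tumors the study gated mature dendritic cells on CD80 and CD86, so a rise of Cd80 and Cd86 here may follow from the sort. Further, 8 dendritic cell markers summed to 10252 CPM or more in every library, most of it from Cd74 (6419 to 11458 CPM). Of these 8, Flt3 (0.438 ± 0.182 and 5.97 ± 1.03 CPM in immature and mature libraries), Zbtb46 (25.6 ± 1.34 and 106 ± 5.32 CPM) and Dpp4 (33.8 ± 1.10 and 117 ± 19.2 CPM) were higher past the criteria in mature BMDCs. Itgax went the other way, at 1386 ± 89.4 and 1041 ± 117 CPM (edgeR adjusted p = 0.0124), short of the fold criterion. H2-Aa and Ciita were higher, also short of that criterion (edgeR adjusted p = 0.0134 and 0.00676). H2-Ab1 and Cd74 did not pass (edgeR adjusted p = 0.819 and 0.0542). Of 10 macrophage and monocyte markers, 9 were lower past the criteria, and their summed level was 2174 to 2267 CPM in immature and 391 to 469 CPM in mature libraries. Granulocyte markers summed to 9.38 to 10.6 and 2.97 to 5.07 CPM, and 2 of the 5 tested were lower past the criteria. These were Csf3r (7.15 ± 0.439 and 2.11 ± 0.429 CPM), which made up most of the sum in immature libraries, and S100a8 (1.81 ± 0.636 and 0.722 ± 0.431 CPM), whose groups overlapped. Mpo, Camp, Ltf and Ngp did not pass the filter on low counts, and Mpo was at 0 in all 3 immature libraries. Epithelial tumor cell markers summed to 70.0 to 77.4 CPM in immature and 59.2 to 69.7 CPM in mature libraries, most of it from Cdh1. Of the 5 tested, Epcam alone passed the criteria, and was higher in mature BMDCs (0.268 ± 0.132 and 1.28 ± 0.4 CPM). Whether RNA of MC38 was carried over was not tested. Cardiac muscle markers summed to at most 5.52 CPM in immature libraries, 26.9 CPM in mature replicate 1 and 704 to 829 CPM in the other mature libraries. Fewer cells of a type and less RNA per cell cannot be told apart in these bulk libraries.

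Levels are in CPM, counts scaled to library size after TMM normalization, which does not correct for gene length. Differences are log2 fold changes of mature against immature BMDCs with their standard errors (SE), from edgeR's quasi-likelihood test, adjusted by Benjamini-Hochberg over the 17461 tested genes. The study's criteria ask for a log2 fold change of 1 or more in either direction together with an adjusted p under 0.05. Fell and rose name differences between the sorted immature and mature libraries, not changes followed in maturing cells.

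In mature BMDCs, 8 of the 9 genes fell and 1, Slc7a11, rose at an adjusted p under 0.05, while 22.9% of all tested genes were lower and 23.2% higher by the same threshold. The count of 8 became 7 in several alternatives, through Nqo1. Past both criteria, 3 of the 9 were lower (Cybb, Nfe2l2 and Txnrd1) and 0 were higher, where 9.95% of tested genes were lower and 13.2% higher. For the 8 genes that fell, no mature library reached an immature one, and for Slc7a11 every mature library lay above every immature one. Among all tested genes, the groups did not overlap with mature libraries lower for 26.7% and with mature libraries higher for 25.4%. The median log2 fold change of the 9 genes was -0.85, and that of all tested genes was 0.055.

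**Figure D1:**
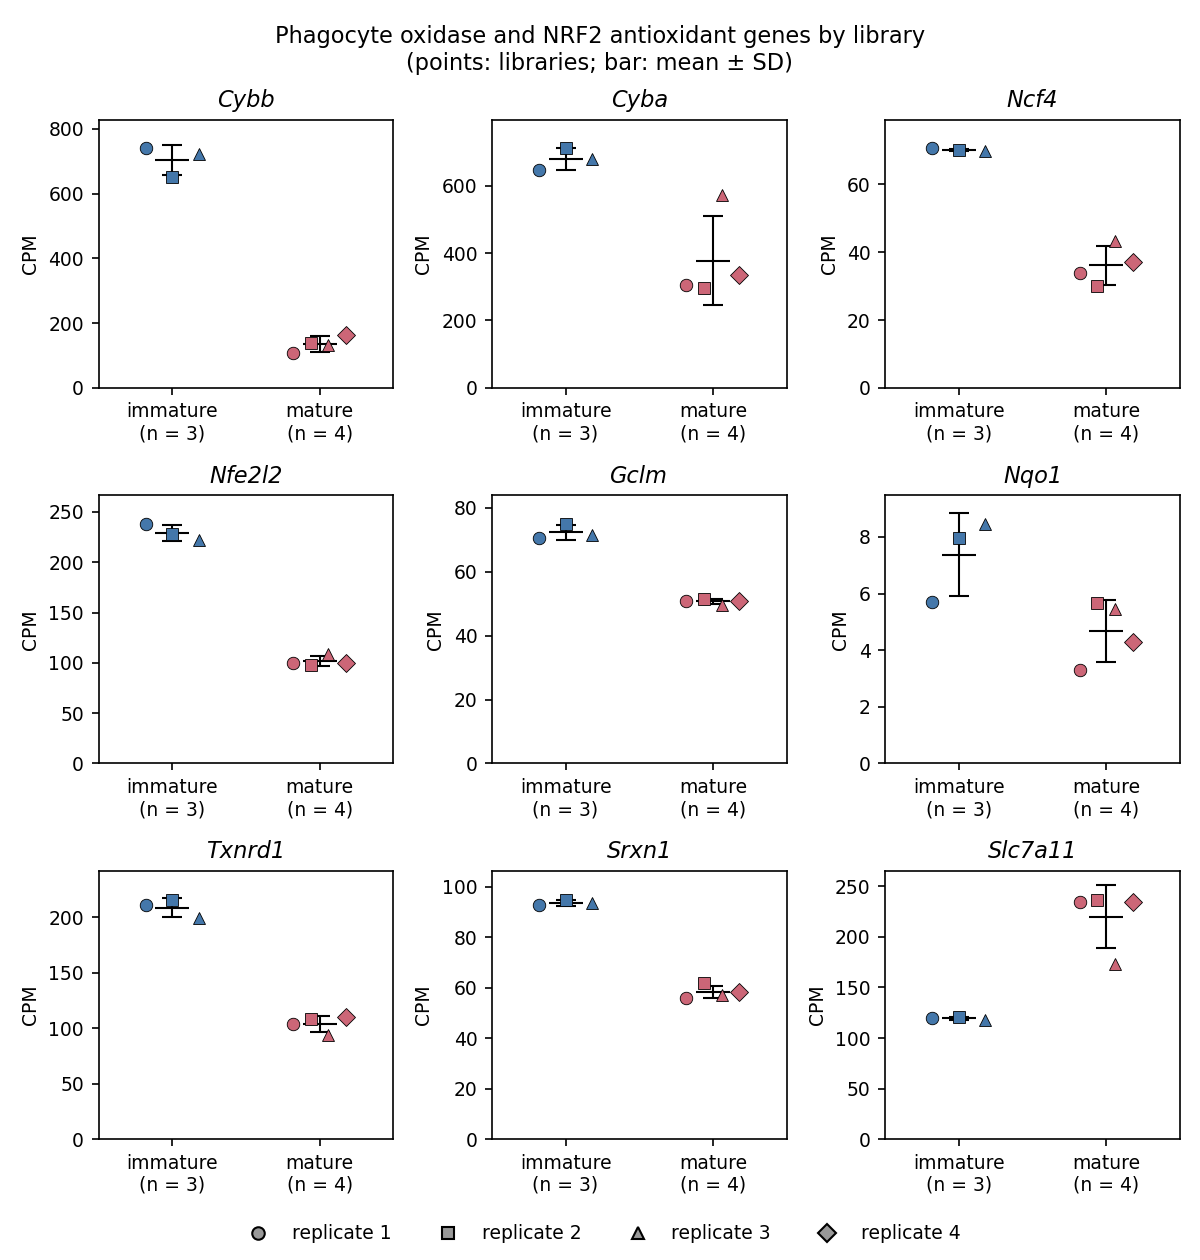
CPM (linear axes from 0) of the 9 genes in each of the 3 immature and 4 mature libraries, with a marker shape per replicate number and bars for the mean ± SD. The mature libraries lie below the immature ones in 8 panels, widest apart for Cybb, and above them in the panel of Slc7a11.

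Cybb, the gene of the catalytic subunit NOX2, lies on chromosome X from 9435252 to 9487771 (GRCm38, as are all gene positions given here). Its CPM was 740, 653 and 722 in immature replicates 1 to 3 and 107, 140, 132 and 164 in mature replicates 1 to 4. The lowest immature library thus stood 490 CPM above the highest mature one. Cybb fell 5.20-fold (log2 fold change -2.38, SE 0.14, edgeR adjusted p = 2.5e-06), the widest difference of the 9. In the same libraries the summed level of the macrophage and monocyte markers was lower as given above. The part of this in the fall of Cybb, or of any other gene described here, was not tested. The level of Cybb was lowest in mature replicate 1, where the cardiac muscle markers were also lowest among the mature libraries, and the part of those cells or RNAs was not tested.

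Cyba encodes the small membrane partner that holds NOX2 stable, and lies on chromosome 8 from 122424776 to 122432930. It was at 646, 711 and 679 CPM in the immature libraries and at 306, 297, 573 and 334 CPM in mature replicates 1 to 4. Mature replicate 3 lay near the immature range, while the other mature libraries lay at about the same level. Cyba fell 1.80-fold (log2 fold change -0.85, SE 0.22, edgeR adjusted p = 0.0129). Without mature replicate 3 the log2 fold change was -1.10 (edgeR adjusted p = 4.0e-07), past both criteria. Over the left-out libraries the log2 fold change of Cyba ranged from -1.10 to -0.74, and its edgeR adjusted p reached 0.0463. The longest annotated transcript of Cyba has 744 bases, the shortest of the 9, and that of Slc7a11 has 9223, the longest. Against the mean of the other mature libraries, the level of mature replicate 3 was 1.83 times as high for Cyba and 0.735 times as high for Slc7a11, the extremes of the 9 genes. In order of rising length, Ncf4, Nqo1, Nfe2l2, Srxn1, Txnrd1, Cybb and Gclm were at 1.28, 1.21, 1.1, 0.976, 0.878, 0.965 and 0.973. The part of transcript length in these ratios was not tested.

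Ncf4 encodes a cytosolic subunit that binds a phosphoinositide of the phagosome membrane, and lies on chromosome 15 from 78244801 to 78262580. Its immature libraries were nearly equal, at 70.6, 70.0 and 69.9 CPM, and its mature libraries were at 33.8, 30.1, 43.4 and 37.1 CPM. Ncf4 fell 1.95-fold (log2 fold change -0.96, SE 0.12, edgeR adjusted p = 0.000243), and without mature replicate 3 it passed both criteria (log2 fold change -1.04, edgeR adjusted p = 3.0e-06).

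The wider oxidase complex was measured in 9 genes. Of these, 7 (77.8%) were lower in mature BMDCs at an adjusted p under 0.05 and 0 were higher, beside 22.9% and 23.2% of all tested genes. Past both criteria, 1 was lower (Cybb, 11.1% of the list), beside 9.95% of all tested genes. The median log2 fold change was -0.55. Ncf1, the gene of the organizer subunit, was at 759 to 814 CPM in immature and at 529 to 553 CPM in mature libraries, and fell by 0.55 on the log2 scale (SE 0.070, edgeR adjusted p = 0.000266). Rac2, the GTPase gene of blood cells, was at 554 to 564 CPM and at 401 to 482 CPM, and fell by 0.37 on the log2 scale (SE 0.084, edgeR adjusted p = 0.00638). Ncf1, Ncf4 and Rac2 thus fell by less than 1 on the log2 scale, and Cybb by more than 2. Hvcn1, which encodes the proton channel that balances the charge moved by the oxidase, was at 210 ± 12.5 CPM and 126 ± 5.62 CPM (log2 fold change -0.74, edgeR adjusted p = 7.4e-05). Rac1 and Cybc1 did not pass, at log2 fold changes of 0.011 (SE 0.079, edgeR adjusted p = 0.922) and -0.17 (SE 0.074, edgeR adjusted p = 0.0886).

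**Figure D2:**
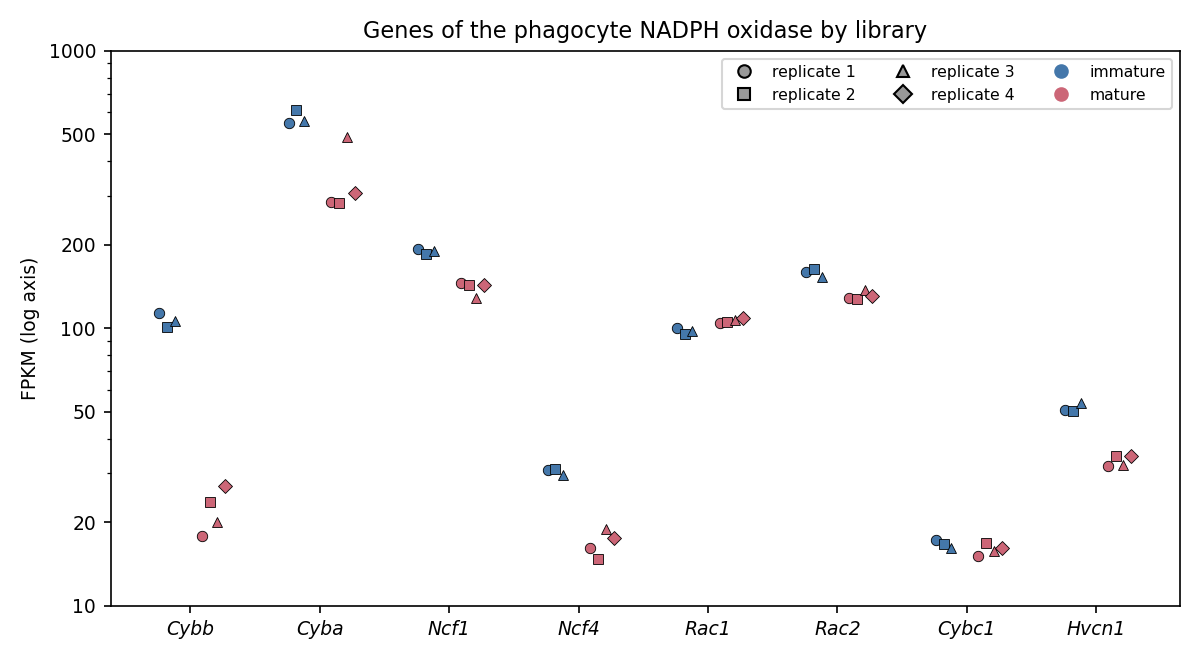
FPKM (log axis) of 8 oxidase genes in each library, immature in blue and mature in red, with a marker shape per replicate number. Cyba is the highest gene in both groups and Cybb moves from 101 to 113 FPKM in immature libraries to 17.8 to 26.9 FPKM in mature ones.

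Per length, in FPKM as deposited, Cybb and Cyba were at 107 ± 6.11 and 574 ± 33.5 in immature BMDCs (SD, n = 3) and at 22.1 ± 4.02 and 340 ± 99.0 in mature BMDCs (SD, n = 4). The ratio of Cybb to Cyba within a library, which does not depend on the scaling between libraries, was 0.205, 0.164 and 0.190 in immature replicates 1 to 3. It was 0.0624, 0.0841, 0.0412 and 0.0877 in mature replicates 1 to 4. On the log2 scale the mature mean was lower by 1.49, that is -3.92 ± 0.50 (SD, n = 4) against -2.43 ± 0.16 (SD, n = 3), and the groups did not overlap (exact permutation over all 35 labelings, two-sided, p = 0.0571, adjusted p = 0.0761 over 4 ratios). This p is the smallest that 3 against 4 libraries allow, so no ratio could pass 0.05. Without mature replicate 3, which had the lowest ratio, the difference was -1.27. The levels of that library fell with transcript length as given above, and the part of this in the Cybb to Cyba ratio was not tested.

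**Figure D3:**
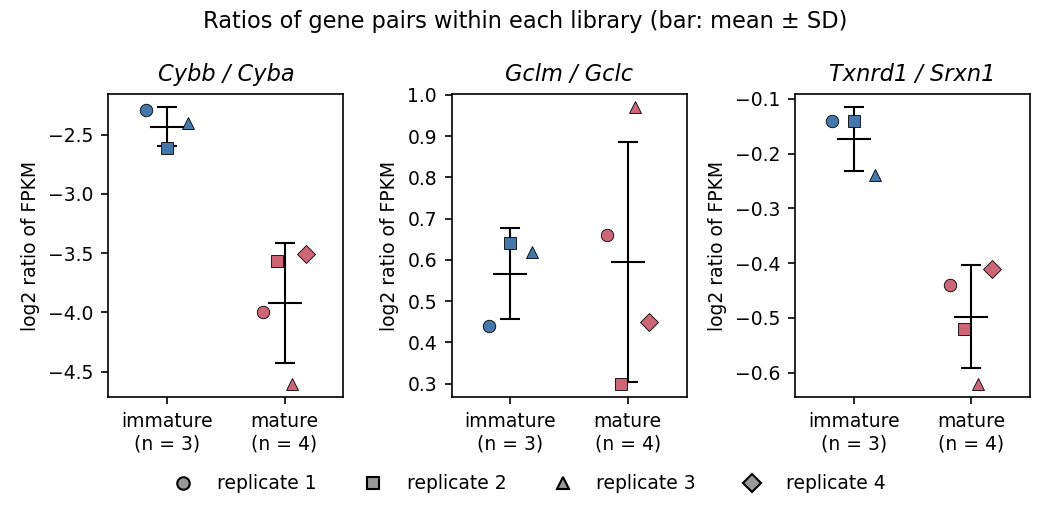
Log2 ratio of FPKM of 3 gene pairs within each library, with bars for the mean ± SD (immature n = 3, mature n = 4). Cybb to Cyba and Txnrd1 to Srxn1 are lower in every mature library, and Gclm to Gclc overlaps between the groups.

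Nfe2l2 lies on chromosome 2 from 75675513 to 75704641. It was at 238, 228 and 222 CPM in the immature libraries and at 99.8, 97.5, 109 and 99.9 CPM in mature replicates 1 to 4. Both groups were tight and lay 113 CPM apart. Nfe2l2 fell 2.26-fold (log2 fold change -1.18, SE 0.074, edgeR adjusted p = 3.8e-06).

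Among 12 genes of NRF2 and its regulators, 5 (41.7%) were lower and 3 (25%) higher at an adjusted p under 0.05. Of all tested genes, 22.9% were lower and 23.2% higher, so the share of higher genes was near that of all genes. Past both criteria, 2 were lower (Bach1 and Nfe2l2, 16.7%), beside 9.95% of all tested genes. The median log2 fold change was -0.15. Bach1, the gene of the repressor, was at 101, 86.5 and 101 CPM in immature and at 42.0, 45.1, 24.7 and 37.9 CPM in mature libraries. It fell 2.58-fold (log2 fold change -1.37, SE 0.19, edgeR adjusted p = 0.000405). The transcripts of the activator and the repressor of the same elements were thus both lower in mature BMDCs, and their proteins were not measured here. Keap1 fell from 67.0 ± 1.05 to 54.5 ± 1.49 CPM, a log2 fold change of -0.30 (SE 0.069, edgeR adjusted p = 0.00766), with an adjusted p above 0.05 under upper quartile normalization (0.0536) and in the limma fits (0.0793 to 0.112). The small MAF genes split, with Mafg and Mafk at log2 fold changes of -0.63 and -0.77 (edgeR adjusted p = 0.000278 and 0.00307) and Maff at 0.58 (edgeR adjusted p = 0.00893).

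Slc7a11 encodes the transport subunit of the cystine and glutamate antiporter, which brings in the cystine needed for glutathione, and lies on chromosome 3 from 49892526 to 50443614. Its immature libraries were at 120, 121 and 118 CPM, and mature replicates 1 to 4 at 235, 237, 173 and 235 CPM. Mature replicate 3 was the lowest mature library, still 52.3 CPM above the immature ones. Slc7a11 rose 1.84-fold (log2 fold change 0.88, SE 0.12, edgeR adjusted p = 0.000395), and without mature replicate 3 it passed both criteria (log2 fold change 1.0, edgeR adjusted p = 6.5e-08). Slc3a2, which encodes the heavy chain that carries this transporter to the membrane, did not pass, at 283 ± 7.34 and 232 ± 37.7 CPM (log2 fold change -0.28, SE 0.12, edgeR adjusted p = 0.0876).

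Gclm encodes the modifier subunit of glutamate-cysteine ligase, the rate-limiting enzyme of glutathione synthesis, and lies on chromosome 3 from 122245557 to 122270732. It was at 70.6, 74.9 and 71.4 CPM in immature and at 50.8, 51.4, 49.6 and 50.8 CPM in mature libraries. Gclm fell 1.43-fold (log2 fold change -0.51, SE 0.069, edgeR adjusted p = 0.000358). Gm17494, on the opposite strand, overlaps Gclm and had up to 1167 counts in a library. The library kit marks strand, but the sources used here do not say whether the counting used it. Gclc, the catalytic subunit gene, was at 31.2, 28.7 and 27.8 CPM in immature and at 19.2, 25.0, 15.1 and 22.3 CPM in mature libraries, and fell by a like size (log2 fold change -0.52, SE 0.16, edgeR adjusted p = 0.0287). That call was lost without any 1 of the immature libraries (edgeR adjusted p = 0.101, 0.0733 and 0.0624 without replicates 1, 2 and 3) and without mature replicate 1 (0.0643). The log2 ratio of Gclm to Gclc was 0.57 ± 0.11 (SD, n = 3) and 0.59 ± 0.29 (SD, n = 4), with overlapping groups (two-sided exact permutation test, p = 0.800, adjusted p = 0.800).

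Among the 12 genes of glutathione synthesis and breakdown, 6 (50%) were lower and 2 (16.7%) higher at an adjusted p under 0.05. The shares of all tested genes were 22.9% and 23.2%. The median log2 fold change of the 12 was -0.42. The 2 genes past both criteria, Ggt5 and Chac1, act in glutathione breakdown and were low. Chac1 had 3.05, 2.55 and 3.52 CPM in immature and 0.864, 1.33, 0.738 and 0.816 CPM in mature libraries (log2 fold change -1.69, SE 0.27, edgeR adjusted p = 0.00106), and its fold was under the criterion in limma on log2(FPKM + 1) (-0.77). Ggt5 fell from 2.32 ± 0.449 to 0.468 ± 0.182 CPM (log2 fold change -2.31, SE 0.37, edgeR adjusted p = 0.00100).

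Txnrd1 encodes the cytosolic thioredoxin reductase, which uses NADPH to renew thioredoxin, and lies on chromosome 10 from 82833951 to 82897712. It was at 211, 216 and 199 CPM in immature and at 104, 108, 94.1 and 110 CPM in mature libraries, with 88.9 CPM between the groups. Txnrd1 fell 2.01-fold (log2 fold change -1.01, SE 0.081, edgeR adjusted p = 1.6e-05). Eid3, on the same strand, overlaps it and had at most 57 counts in a library. Gm38560 and Gm47073, on the opposite strand, also overlap Txnrd1 and had up to 151 and 15 counts. Txnrd1 thus stood at the edge of the fold criterion and was just under it in most alternatives, at -0.85 to -1.0, with the adjusted p under 0.05 in each.

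Srxn1 encodes sulfiredoxin, which repairs overoxidized peroxiredoxins, and lies on chromosome 2 from 152105516 to 152109322. It was at 92.7, 95.0 and 93.5 CPM in immature and at 56.0, 61.8, 57.3 and 58.3 CPM in mature libraries. Srxn1 fell 1.61-fold (log2 fold change -0.68, SE 0.071, edgeR adjusted p = 7.2e-05). The log2 ratio of Txnrd1 to Srxn1 was -0.17 ± 0.056 (SD, n = 3) in immature and -0.50 ± 0.091 (SD, n = 4) in mature libraries, without overlap (two-sided exact permutation test, p = 0.0571, adjusted p = 0.0761).

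Of 13 genes of the thioredoxin system, 7 (53.8%) were lower and 1 (7.69%) higher at an adjusted p under 0.05. The shares of all tested genes were 22.9% and 23.2%. The median log2 fold change of the 13 was -0.67. Past both criteria were Txnrd1 and Prdx5, the gene of a peroxiredoxin, which was at 361, 388 and 401 CPM in immature and at 121, 123, 214 and 141 CPM in mature libraries. Prdx5 fell 2.56-fold (log2 fold change -1.36, SE 0.19, edgeR adjusted p = 0.000484). Txn1, the gene of cytosolic thioredoxin, did not pass, with 149, 183 and 175 CPM in immature and 136, 134, 242 and 136 CPM in mature libraries (log2 fold change -0.061, SE 0.22, edgeR adjusted p = 0.842). Its mature replicate 3 lay above all other libraries, and without it Txn1 was lower in mature BMDCs (log2 fold change -0.29, edgeR adjusted p = 0.00654). Its sign also changed with the scaling.

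Nqo1 encodes a quinone reductase that is a standard reporter of NRF2 activity, and lies on chromosome 8 from 107388225 to 107403206. It was the lowest of the 9 genes, at 5.71, 7.96 and 8.46 CPM in immature and at 3.30, 5.67, 5.47 and 4.29 CPM in mature libraries. The highest mature library stood just 0.0391 CPM below the lowest immature one. Nqo1 fell 1.58-fold (log2 fold change -0.66, SE 0.23, edgeR adjusted p = 0.0441). This call did not hold throughout, with an adjusted p of 0.0851 under upper quartile normalization, 0.0766 without the filter on low counts, and 0.0516 and 0.0542 in limma with pseudocounts of 1 and 0.1. It was 0.131 without immature replicate 2, 0.155 without immature replicate 3, 0.0741 without mature replicate 1 and 0.1 without mature replicate 4.

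Nqo1 belongs to a list of 24 tested genes of NRF2 target detoxification and NADPH supply. Of these, 15 (62.5%) were lower and 1 (4.17%) higher at an adjusted p under 0.05, beside 22.9% and 23.2% of all tested genes. Past both criteria, 7 (29.2%) were lower and 1 (4.17%) higher, beside 9.95% and 13.2%. The median log2 fold change of the 24 was -0.70. Hmox1, the gene of heme oxygenase, was at 294, 296 and 323 CPM in immature and at 74.8, 106, 116 and 114 CPM in mature libraries, and fell 2.96-fold (log2 fold change -1.57, SE 0.15, edgeR adjusted p = 4.1e-05). Mgst1, a microsomal glutathione transferase gene, fell from 124 ± 3.07 to 32.1 ± 7.52 CPM (log2 fold change -1.96, SE 0.16, edgeR adjusted p = 1.7e-05). Osgin1, an oxidative stress response gene, fell from 10.2 ± 1.18 to 2.96 ± 0.333 CPM (log2 fold change -1.78, SE 0.16, edgeR adjusted p = 2.6e-05). Pgd, which encodes an NADPH-forming enzyme of the pentose phosphate pathway, fell from 632 ± 24.6 to 207 ± 22.1 CPM (log2 fold change -1.61, SE 0.097, edgeR adjusted p = 3.0e-06). The single rise past the criteria was that of Me1, the gene of cytosolic malic enzyme, which also forms NADPH. Me1 was at 2.40, 3.97 and 4.54 CPM in immature and at 7.20, 14.6, 6.64 and 7.45 CPM in mature libraries (log2 fold change 1.30, SE 0.34, edgeR adjusted p = 0.0130), and its call was lost without mature replicate 2 (log2 fold change 0.97) or without immature replicate 1 (edgeR adjusted p = 0.0516), and its fold was under the criterion in limma on log2(FPKM + 1) (0.78).

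Of 14 genes of superoxide and peroxide removal, 5 (35.7%) were lower and 2 (14.3%) higher at an adjusted p under 0.05. The shares of all tested genes were 22.9% and 23.2%. The median log2 fold change of the 14 was 0.035. Past both criteria, Msra, Glrx and Selenop were lower and Sod3 higher. Msra, which encodes a methionine sulfoxide reductase, fell from 16.9 ± 1.49 to 5.18 ± 1.32 CPM (log2 fold change -1.70, SE 0.20, edgeR adjusted p = 0.000162). Glrx, the gene of glutaredoxin, fell from 119 ± 6.06 to 55 ± 6.09 CPM (log2 fold change -1.11, SE 0.10, edgeR adjusted p = 3.3e-05). Selenop, the gene of a selenium carrier protein, fell from 82.6 ± 6.44 to 39.5 ± 8.95 CPM (log2 fold change -1.06, SE 0.16, edgeR adjusted p = 0.00083). Its fold was under the criterion without mature replicate 1 (log2 fold change -1.0) and without mature replicate 4 (-0.95). Sod3, the gene of extracellular superoxide dismutase, was low in both groups, with 0.273, 0.234 and 0.124 CPM in immature and 2.52, 5.67, 3.99 and 4.45 CPM in mature libraries (log2 fold change 4.30, SE 0.41, edgeR adjusted p = 4.2e-05).

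Of other NADPH oxidases and partners, 5 genes were in the table and 1 passed the filter on low counts. That gene, Noxo1, an organizer of NOX1, had at most 0.983 CPM in any library and was higher in mature BMDCs (log2 fold change 1.40, SE 0.38, edgeR adjusted p = 0.0149). Leaving out immature replicate 1 raised its adjusted p to 0.0525. Nox1, Nox4, Noxa1 and Duox1 were in the table and did not pass the filter.

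**Figure D4:**
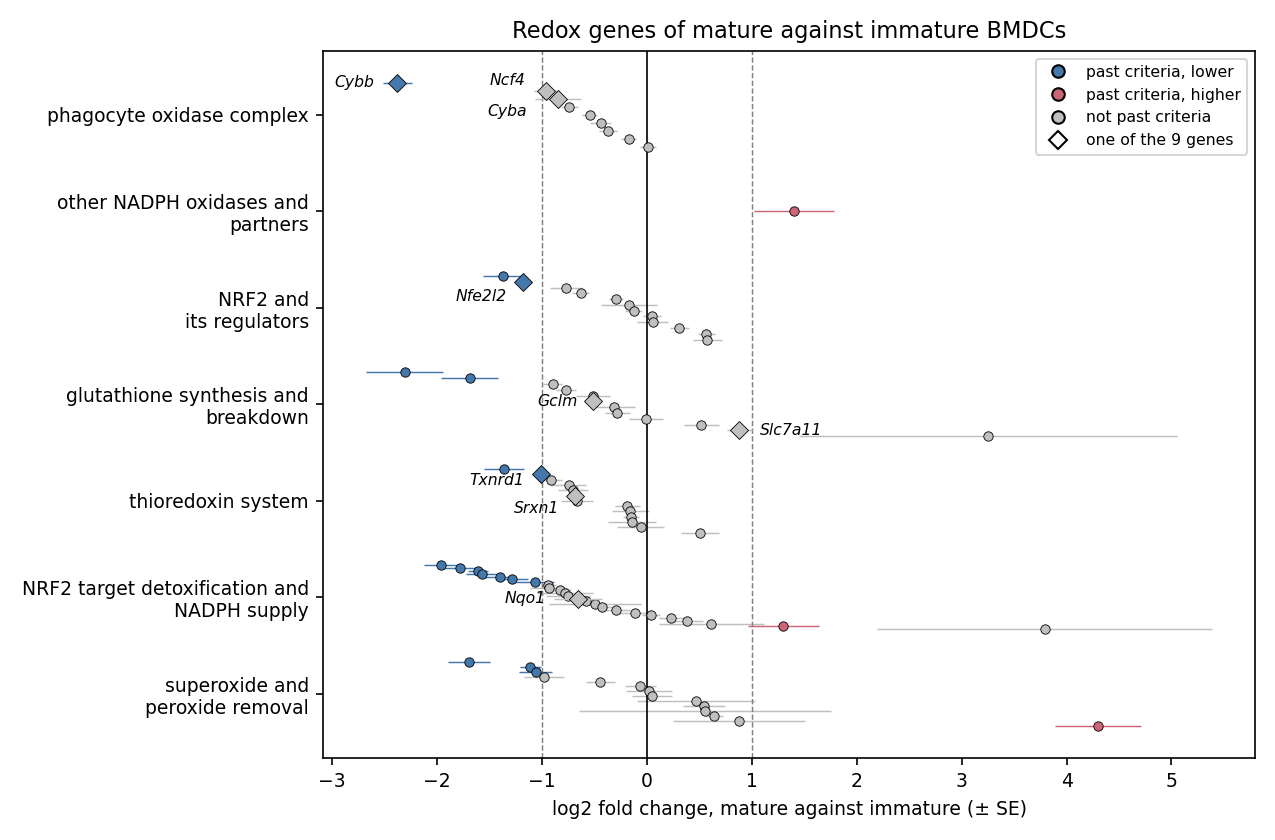
Log2 fold change (± SE) of mature against immature BMDCs for 85 tested redox genes in 7 lists, with the 9 genes as labelled diamonds, color for genes past the criteria and dashed lines at log2 fold changes of -1 and 1. Most points lie left of 0, and Slc7a11 is the labelled gene to the right.

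Over all 7 lists, 45 of 85 tested genes (52.9%) were lower at an adjusted p under 0.05 and 10 (11.8%) higher, beside the shares of all tested genes given above. Past both criteria, 17 (20%) were lower and 3 (3.53%) higher. The median log2 fold change of the 85 was -0.44.

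In FPKM, the order of the 9 genes in immature BMDCs was Cyba, Cybb, Nfe2l2, Ncf4, Srxn1, Txnrd1, Gclm, Slc7a11 and Nqo1, and the ranges of neighbors overlapped for Ncf4 and Srxn1 alone. In mature BMDCs, Cyba was again highest and Gclm and Nqo1 lowest, at 7.62 ± 0.463 and 2.84 ± 0.659 FPKM (SD, n = 4). Between them Nfe2l2, Cybb, Srxn1, Ncf4, Slc7a11 and Txnrd1 lay at mean levels from 25.3 down to 13.9 FPKM, and each overlapped its neighbor among these 6. Slc7a11 rose from 7.55 ± 0.282 (SD, n = 3) to 15.0 ± 2.72 FPKM (SD, n = 4), from the eighth to the sixth place, while Cybb moved from the second to the third.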

How the data were processed

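Reads of 7 libraries were processed by the authors, whose processing notes name cutadapt 1.9, HISAT2 2.2.1, StringTie 2.1.6, DESeq2 and edgeR. The counting program is not given in the sources used here. Per gene, the authors deposited raw whole-number counts, and FPKM values, scaled by gene length and library total and rounded to 2 decimals. The processing notes name mm9, but the table's gene positions equal those of GENCODE M21 (GRCm38) for 90.3% of 28588 shared IDs, so coordinates are taken as GRCm38. Library totals of 54846746 to 67973086 counts set the precision. In every library more genes had 4 counts than had 3 or 5, so a count may not be 1 read.

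Counts were tested across all genes with edgeR 4.0.16 (R 4.3.3), by the quasi-likelihood test without covariates, after TMM scaling and removal of weakly counted genes (filterByExpr). The SE is the log2 fold change divided by the square root of F. FPKM ratios of 4 pairs were compared by exact permutation in scipy 1.17.1. The results of 1 partner gene and its pair are not reported here. The fits were tested on simulated data. Alternatives used limma 3.58.1 on log2(FPKM + 1), and DESeq2 1.42.0.

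The members, lists and alternatives were chosen with earlier results of these data known. Named by rule were the 9 genes, 8 partners, and up to 3 genes per list and direction with the largest fold past the criteria. Slc3a2, Hvcn1, Rac1, Cybc1, Mafg, Mafk and Maff were added after their values were seen.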

Additional observations from a re-analysis of the deposited data

Results flagged for a closer look

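Of 41 values compared over the 4 mature libraries, 6 had a single library apart from the rest, and 2.05 would be flagged by chance. The measure is the distance from that library to its nearest neighbor as a share of the whole range, and the values are not independent. In 4 of the 6 it was mature replicate 3. The share was 0.867 for Cyba (573 CPM against 297 to 334 CPM in the other mature libraries), 0.962 for Slc7a11 (173 CPM against 235 to 237 CPM), 0.979 for Txn1 (242 CPM against 134 to 136 CPM) and 0.843 for Mgst1 (43.2 CPM against 27.1 to 29.6 CPM). Mature replicate 2 stood apart for Me1, at 0.897 (14.6 CPM against 6.64 to 7.45 CPM). Mature replicate 1 stood apart for the summed cardiac muscle markers, at 0.844 (26.9 CPM against 704 to 829 CPM).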

How the results depend on the processing

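Leaving out each library in turn gave 3646 to 4052 genes past the criteria (1940 to 2306 higher, 1633 to 1759 lower), against 4037 (2300 higher, 1737 lower) with all. An adjusted p under 0.05 alone gave 8053 (4047 higher, 4006 lower), limma on log2(FPKM + 1) gave 1768 (946 higher, 822 lower), a pseudocount of 0.1 gave 2561 (1390 higher) and FPKM scaled to equal sums gave 2346 (1183 higher). Of the 9 genes, 3 were lower past the criteria (2 to 4 over the left-out libraries, 8 by the adjusted p alone) and 0 higher (0 to 1 over the left-out libraries, with 1 without mature replicate 3, and 1 by the adjusted p alone). Of the list genes, 17 were lower (15 to 21 over the left-out libraries, 10 in limma, 45 by the adjusted p alone) and 3 higher (1 to 4 over the left-out libraries, with 1 without immature replicate 1, 0 in limma, 1 with the pseudocount of 0.1, 1 with scaled FPKM, 5 with mature replicates 2 and 4 only, 10 by the adjusted p alone).

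Txnrd1 was just under the fold criterion in DESeq2 (-0.98), with RLE size factors (-0.98), upper quartile normalization (-0.90), no filter (-0.99), limma (-0.85, with the pseudocount of 0.1 -0.90, scaled -0.94), counts divided by 2 (-1.0) or 4 (-0.97) and mature replicates 2 and 4 only (-0.92), and ranged from -1.04 to -0.94 over the left-out libraries, with its adjusted p at most 0.000679. Without mature replicate 3, Cyba and Ncf4 passed it (ranges -1.10 to -0.74 and -1.04 to -0.88), as they did with mature replicates 2 and 4 only (-1.09 and -1.04), and Slc7a11 did (range 0.85 to 1.0). Txn1 changed sign under upper quartile normalization (0.05), in limma (0.0023, and 0.0022 with the pseudocount of 0.1) and without mature replicates 1 (0.013), 2 (0.025) or 4 (0.019), and was -0.29 without mature replicate 3 (edgeR adjusted p = 0.00654). The difference in the Gclm to Gclc ratio changed sign without immature replicate 1 (-0.04) and mature replicate 3 (-0.10), and reached 0.12. The causes were not tested. The 8 falls and 1 rise of the 9 genes kept their direction in every alternative, with Nqo1 at an adjusted p of 0.024 to 0.155. The count lower at an adjusted p under 0.05 was thus 7 in place of 8 under upper quartile normalization, without the filter, in limma with either pseudocount, without immature replicate 2 or 3 or mature replicate 1 or 4, and with mature replicates 2 and 4 only.

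The labels do not say whether replicate numbers pair the libraries. Correlations of deviations were 0.0285, -0.00114 and 0.0144 for equal numbers and -0.0484 to 0.036 for unlike ones. With so few libraries these cannot decide it. With the replicate block, 3616 genes passed the criteria (1936 higher, 1680 lower), 3 of the 9 genes were lower, and Noxo1 was lost (edgeR adjusted p = 0.0673). Upper quartile normalization moved the median log2 fold change of all genes from 0.055 to 0.165, and DESeq2 and the lack of a filter, which test more low genes, gave 0.18 and 0.171. Of named genes other than the 9 that passed both criteria, Noxo1, Chac1, Me1, Glrx and Selenop missed them in 14 values in all. The setting of mature replicates 2 and 4 only, and that of counts divided by 4, were chosen after seeing the data. With 3 against 4 libraries, the exact tests could not reach 0.05, and counts were lowest for Noxo1 and Sod3, under 1 CPM in every immature library.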

Other observations

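In the list of NRF2 target detoxification and NADPH supply, 3 further genes were lower past the criteria. Ftl1 and Fth1, the genes of the ferritin chains, fell from 6988 ± 293 to 2858 ± 649 CPM and from 5267 ± 139 to 2507 ± 659 CPM (log2 fold changes -1.29 and -1.07, edgeR adjusted p = 0.000203 and 0.00129). Abcc4, the gene of an export pump, fell from 32.1 ± 1.25 to 12.1 ± 2.17 CPM (log2 fold change -1.40, edgeR adjusted p = 6.6e-05). Of genes that were lower at an adjusted p under 0.05 and just short of the fold criterion, G6pdx, which encodes the entry enzyme of the pentose phosphate pathway, had a log2 fold change of -0.94 (edgeR adjusted p = 1.0e-05). Gsr, the gene of glutathione reductase, had -0.90 (edgeR adjusted p = 7.0e-05), and Prdx1, a peroxiredoxin gene, had -0.92 (edgeR adjusted p = 0.000218). Cat, the gene of catalase, went the other way, from 164 ± 7.58 to 257 ± 17.6 CPM (log2 fold change 0.64, edgeR adjusted p = 0.000292). These genes were chosen after their values were seen.

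Mature replicate 2 held 3 further redox genes at levels that no other library reached. Gpx3 was at 128 CPM there and at 3.41 to 4.09 CPM in the other mature libraries, with 19.9 to 27.1 CPM in immature ones. Ggt1 was at 9.95 CPM there and at most 0.477 CPM elsewhere. Nox4 was at 1.33 CPM there and had 0 counts in the other 6 libraries.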
